A study of Mus musculus with 21 samples.

Results

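The stretch of mouse chromosome 12 around Id2 was examined for open chromatin in 3 successive bone marrow progenitors of innate lymphoid cells. TCF1 binding there was examined in the middle stage alone. Members were all peaks of the 4 deposited peak lists that overlap chr12:25500000-26100000 on build mm9, a window that holds Id2 at about 25778000 to 25781000 on the minus strand. There were 151 such peaks of 215239 in all: 49 of 66499 DNase I hypersensitive sites (DHS) in the all-lymphoid progenitor (ALP), 49 of 70088 in the early innate lymphoid progenitor (EILP), 48 of 71973 in the ILC precursor (ILCP), and 5 of 6679 TCF1 peaks in EILP. Joined wherever they shared at least 1 bp, the DHS peaks of the window formed 75 regions of 102384 over the genome. Membership was set by position and not by any measured value. The place of Id2 is the approximate one of that rule, since no mm9 annotation was used, and which of these regions act on Id2 was not measured.

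Cells were sorted from the bone marrow of C57BL/6 mice. ALP were lineage-negative, Kit+ and 2B4+, lacked a4b7 and were Flt3high and IL-7Ra+, and their genotype label was Tcf7EGFP/+. EILP were lineage-negative, Kit+, 2B4+, a4b7+ and Tcf7+ but Thy1-, and their genotype label was Tcf7EGFPnull/+. ILCP shared the EILP surface markers except that they were Thy1+ and also IL-7Ra+, and their label was Tcf7EGFP/+. By these labels all cells carried an EGFP allele of Tcf7, the gene of TCF1, but that of EILP is named null, although its pooled list, like the others, is named WT. If the label holds, stage and allele cannot be told apart in comparisons with EILP. No age is given and cell identity rests on the sort, as expression was not analysed here.

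DNase-seq, which finds accessible DNA by its cutting with DNase I, used 3 libraries of 300 cells per stage. CUT&RUN, in which an antibody brings a nuclease to the bound factor, used 6 TCF1 and 4 IgG samples of 500 EILP, which carry 4 and 3 library numbers, since some are technical repeats. Labels of 2 further libraries conflict on the antibody and these were put in no group, although the control tags of the TCF1 calls include their library number per the file headers. Each list was called on pooled tags (12420429 for ALP, 11236009 for EILP, 12681410 for ILCP, and 2418839 for TCF1 against 2919489 control tags), which leaves no spread between libraries to compare with. The intervals printed are 95% ones and cover counting error only.

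Id2 encodes an inhibitor of DNA binding, a helix-loop-helix protein that lacks the basic region for contact with DNA. It pairs with E proteins and so keeps them from their target sites, the E boxes. In lymphoid progenitors E proteins promote the B and T cell fates, and Id2 is required for the innate lymphoid and natural killer lineages. TCF1 is an HMG-box factor needed for early innate lymphoid progenitors.

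The promoter is shown because it carried the tallest DHS of the window in every stage and the strongest of its TCF1 peaks. The 250 bases before the Id2 start in RefSeq, build GRCm38.p6, minus strand at chr12:25096093-25096342, are printed 5′ to 3′. These are GRCm38 positions and differ from the mm9 positions used for peaks. Capitals mark CCAAT, or its complement ATTGG, and the TATA-like ATAAAA, which were looked for after the sequence was read.
Id2 promoter: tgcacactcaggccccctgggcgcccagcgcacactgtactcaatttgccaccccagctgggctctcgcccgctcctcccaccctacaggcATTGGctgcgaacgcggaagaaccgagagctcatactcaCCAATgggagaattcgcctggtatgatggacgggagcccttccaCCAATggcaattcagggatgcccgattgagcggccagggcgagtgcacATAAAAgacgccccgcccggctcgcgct

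CCAAT occurred 3 times over both strands, beginning 159, 120 and 76 bases before the start, and 33.8% of 32851 RefSeq promoter stretches of that length hold at least 1. ATAAAA began 28 bases before the start, and 17.0% of stretches hold it on either strand. The stretch was 62.8% G and C against a median of 52.4%, with 18 CpG against a median of 6. An E box, CANNTG, began 196 bases before the start, which 66.2% of stretches also hold. Searched on both strands, the TCF/LEF letters CTTTGAT (in 3.21% of stretches) and CTTTGAA (4.46%) were not in these 250 bases. The same held for the GATA letters AGATAA (9.99%), the NFIL3 letters TTACGTAA (0.113%) and TTATGTAA (0.819%), the ETS letters CCGGAAG (6.91%) and the RUNX letters TGTGGTT (4.4%). No searched motif overlapped another.

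At the Id2 start a single DHS stood in the same place in all 3 stages. Its height, the number of tags extended to 100 bp that cover the summit, was 44 tags in ALP at 25780891 to 25781219, 44 in EILP at 25780896 to 25781215 and 51 in ILCP at 25780862 to 25781178. Scaled to 10000000 tags of the list (10M), the heights were 35.4 (25.7 to 47.6), 39.2 (28.5 to 52.6) and 40.2 (29.9 to 52.9). The intervals overlap throughout, and the ratio of ILCP to ALP was 1.14 (0.744 to 1.74). The summits lay within 16 bp of each other. In height the promoter stood at or above 96.8% of ALP peaks, 97.1% of EILP peaks and 98.0% of ILCP peaks.

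The surroundings of the promoter did differ between the stages. The deposited fold enrichment is (height + 1) over (local background + 1), and the background of a DHS peak is a tag count over the 10 kb around its summit, or the genome-wide mean where that is larger. Solved for this count, the values came out as whole tags for 100% of peaks above that mean in each list, within 0.1 tag. The 10 kb around the Id2 summit held 269 tags in ALP, 339 in EILP and 478 in ILCP. Per 10M tags these were 217 (191 to 244), 302 (270 to 336) and 377 (344 to 412), an order ALP, EILP, ILCP in which no 2 intervals overlap. The count was 1.39 (1.18 to 1.64) times as high in EILP as in ALP and 1.25 (1.08 to 1.44) times as high in ILCP as in EILP. Taken singly, neither step stood apart from the genome, where 7.31% and 9.59% of shared regions had ratios as high. The central 90% of shared regions ran from 0.757 to 1.45 and from 0.681 to 1.36.

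From ALP to ILCP the ratio was 1.74 (1.5 to 2.03). Over 34238 shared regions with a count in both stages the median ratio was 1.02 and the central 90% ran from 0.661 to 1.48. Only 1.52% of these regions had a ratio as high as that of the Id2 promoter. In the ILCP list 0.25% of peaks had as many tags within 10 kb, against 0.99% in EILP and 3.83% in ALP. These shares are places within lists of different length and show no change by themselves. Less the tags at the summit itself, the ratio was 1.86. The fold enrichment of the promoter peak went the other way, from 12.2 in ALP to 10.3 in EILP and 9.0 in ILCP, as the local background is its divisor.

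**Figure D1:**
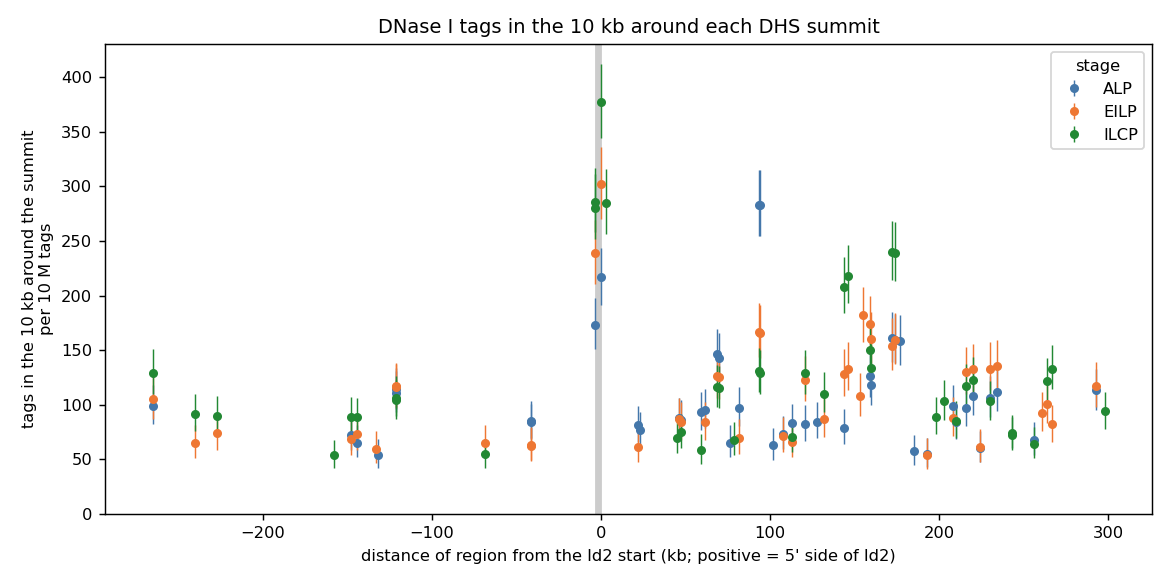
Tags in the 10 kb around each DHS summit of the Id2 window, per 10M tags of its list, against the distance of the region from the Id2 start. Points are regions whose count exceeded the genome-wide mean, bars are exact 95% Poisson intervals, and the Id2 promoter stands at 217 in ALP, 302 in EILP and 377 in ILCP. It is the highest point of EILP and ILCP, while ALP is highest 93 to 94 kb before the start, at 283.

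Of the 3 other regions within 10 kb of Id2, 2 were found in ILCP alone and 1 in every stage. At 25777208 to 25777671, just past the 3′ end of the gene, a DHS had 16 tags in ALP, 19 in EILP and 27 in ILCP. Per 10M tags these were 12.9 (7.36 to 20.9), 16.9 (10.2 to 26.4) and 21.3 (14 to 31), and the intervals overlap. Next to it an ILCP peak of 18 tags and fold 4.10 at 25777740 to 25777929 had no counterpart, although the nearest EILP peak was 186 bp away. On the other side, 2.81 kb before the start, an ILCP peak of 21 tags and fold 4.77 at 25783719 to 25783900 lay 2504 bp from the nearest EILP peak and 2500 bp from the nearest ALP peak. In fold these 2 ILCP peaks were low for their list, at or above 4.72% and 18.4% of its peaks. In height they stood at or above 68.9% and 76.4%, and the high local background here lowers the fold. Of ILCP regions with as high a fold or higher, 28.9% and 23.2% were also missing from EILP. The 10 kb counts of these neighbours share tags with that of the promoter.

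TCF1 had its tallest peak of the window on the promoter. That peak, at 25780897 to 25781124, had 10 tags and a fold of 6.02, at or above 81.8% of TCF1 peaks in fold and 96.9% in height. Its summit lay 13, 24 and 29 bp from the DHS summits of ALP, EILP and ILCP. The TCF1 list is shallow, with a median height of 5 tags and 60.7% of peaks at 5 tags or fewer. The promoter peak was therefore among the taller ones.

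The 4 other TCF1 peaks rested on 4 or 5 tags. A peak of 5 tags at 25996571 to 25996702, 216 kb before the start, overlapped a DHS of all 3 stages at 25996610 to 25997029. That DHS had 23 tags in ALP, 30 in EILP, where TCF1 was measured, and 14 in ILCP. The other 3 overlapped no DHS. One at 25660267 to 25660366 missed an EILP DHS by 17 bp, one at 25882178 to 25882277 missed an EILP DHS by 446 bp, and one at 26050977 to 26051086 lay 3013 bp from the nearest. So 2 of 75 regions (2.67%, Wilson interval 0.734 to 9.21) held a TCF1 peak, against 4.16% of regions over the genome. Among regions open in EILP the count was 2 of 49 (4.08%, 1.13 to 13.7), against 5.62%. Neither share stood apart from the genome within its interval.

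**Figure D2:**
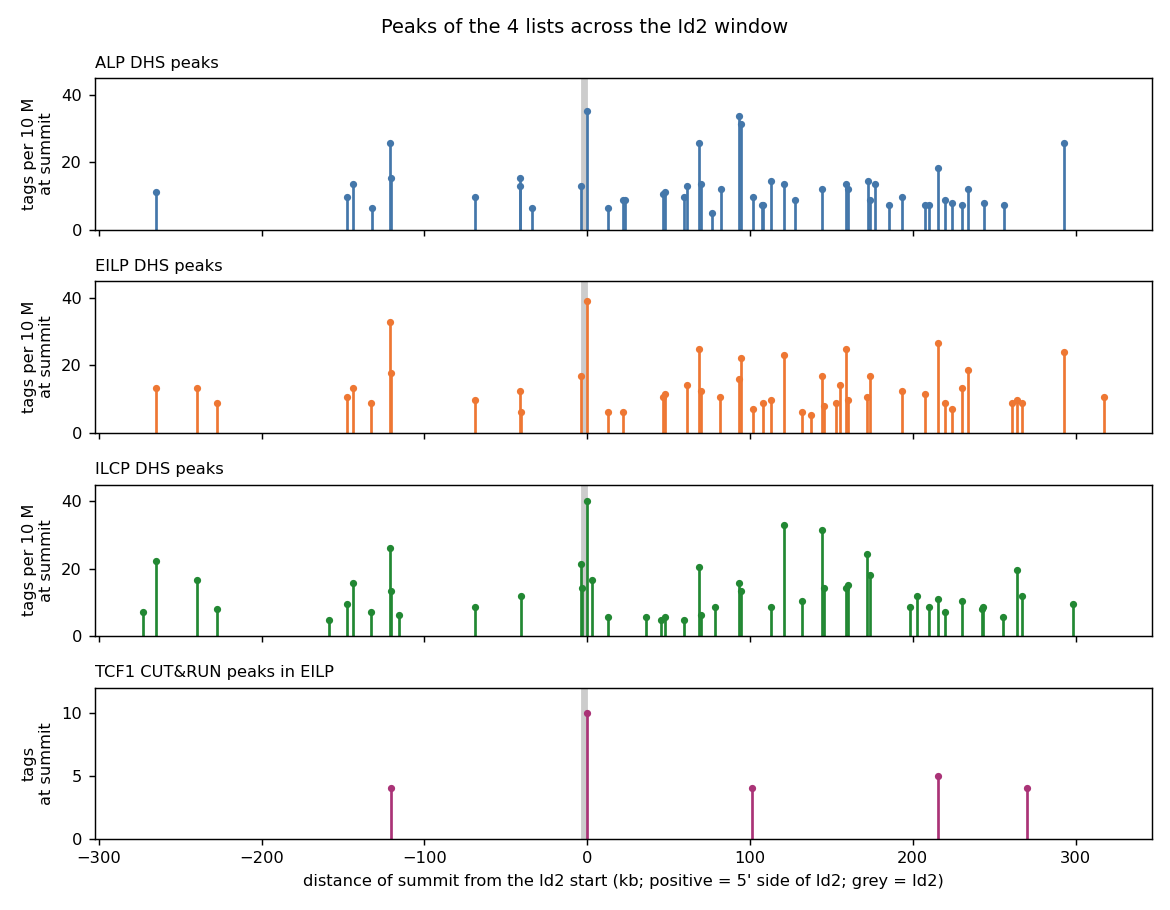
Summit heights of the 49 ALP, 49 EILP and 48 ILCP DHS peaks, in tags per 10M, and of the 5 TCF1 peaks, in tags, against distance from the Id2 start in kb, with Id2 in grey. The tallest line of every panel stands at the Id2 start, and most DHS lie on its 5′ side.

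The window was dense in DHS compared with the rest of the chromosome. It held 49 DHS summits in ALP, where the median over 196 tiles of 600 kb was 9.5, 49 in EILP against 8.5, and 48 in ILCP against 11. As many or more were found in 2, 4 and 5 of the tiles. Of the 75 regions, 57 lay on the 5′ side of the start, a flank of 319 kb, and 18 lay over the gene and its 3′ flank of 278 kb. In the RefSeq gene order of GRCm38 the neighbours past the 3′ end of Id2 are Kidins220, the lncRNA gene Gm36236 and Mboat2. Before its start come 11 lncRNA genes and 2 pseudogenes, beginning with Gm17746 and Gm36287, and then Rnf144a, the first protein-coding gene. Which of them lie inside the mm9 window was not determined.

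Peaks of the window were of ordinary height for their lists, while in fold those of ILCP were lower. At or above the median fold of the list were 21 of 49 ALP, 25 of 49 EILP and 16 of 48 ILCP peaks. The median fold was 6.69 in ALP against 6.95 over the whole list, 6.90 in EILP against 6.87, and 6.07 in ILCP against 6.91. Median heights were 14, 13 and 13.5 tags, against 14, 13 and 13. Single peaks ranged from 6 to 44 tags in ALP and EILP and from 6 to 51 in ILCP, and folds from 3.87 to 13.9, 4.0 to 16.5 and 3.66 to 16.3. The strongest peak by fold lay in ALP and EILP at 25659649 to 25659903, 121 kb past the start on the 3′ side, where the heights were 32 tags in ALP, 37 in EILP and 33 in ILCP and the folds 13.9, 16.5 and 14.7. In ILCP the strongest was instead on the 5′ side, at 25901579 to 25902035, with 42 tags and a fold of 16.3.

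Turnover of regions was close to that of the genome. At the step from ALP to EILP, 13 of 49 EILP regions were gained (26.5%, 16.2 to 40.3), against 28.1% over the genome, and 12 of 48 ALP regions were lost (25.0%, 14.9 to 38.8), against 24.1%. From EILP to ILCP, 16 of 48 ILCP regions were gained (33.3%, 21.7 to 47.5), against 30.6%, and 17 of 49 EILP regions were lost (34.7%, 22.9 to 48.7), against 28.4%. Absence means that no peak passed the authors' cutoff, and 6 of these 58 changes had a peak of the other stage within 500 bp. Regions open in all 3 stages numbered 24 (32.0%, 22.5 to 43.2), against 39.0% over the genome. Another 12 were shared by ALP and EILP alone (16.0%, 9.40 to 25.9), against 9.52%.

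**Figure D3:**
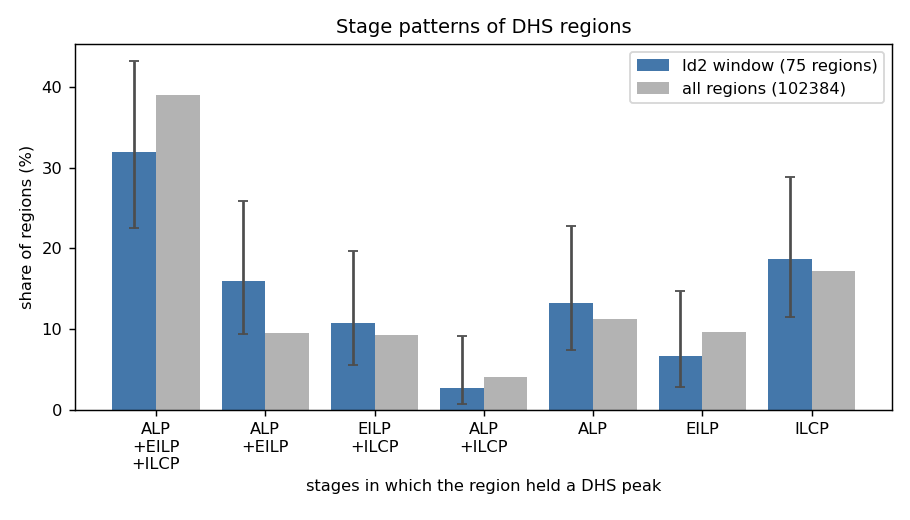
Share of the 75 regions of the Id2 window (with 95% Wilson intervals) and of all 102384 regions, in percent, for each set of stages in which a DHS was called. The genome share lies inside the interval of the window for all 7 patterns, most narrowly for regions shared by ALP and EILP (9.52% against a lower bound of 9.40%).

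The changes were then placed by distance. Each of the 13 regions gained at EILP lay at least 132 kb from the Id2 start, which is the distance of the nearest. Of all 49 EILP peaks, 15 lay within 100 kb of Id2. On the 5′ side were 10 of the 13 gains, and 57 of all 75 regions. Of these 13, 8 were still open in ILCP (61.5%, 35.5 to 82.3), against 49.0% over the genome, and 5 had closed again. Of the 17 regions lost at ILCP, 12 had been open in ALP too (70.6%, 46.9 to 86.7), against 49.7%. Both genome shares lie inside the intervals. On the 5′ side lay 16 of the 17, as did 37 of all 49 EILP peaks.

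Among the regions that opened at EILP and stayed, the strongest were 240 kb past the start on the 3′ side and 264 kb before it. The first, at 25541237 to 25541649, had no ALP peak, 15 tags in EILP and 21 in ILCP, with folds of 9.25 and 10.2. Over the genome, 3.49% of EILP regions with a fold that high were gained. The second, at 26044739 to 26045091, had 11 tags in EILP and 25 in ILCP, with folds of 5.63 and 10.2. The third, at 25952586 to 25953143, had 12 and 31 tags. An ALP peak of 18 tags lay 145 bp beyond it, at 25953288 to 25953452, so ALP was accessible beside this region.

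Among the regions closed at ILCP, the strongest was 293 kb before the start. The DHS at 26074043 to 26074420 had 32 tags in ALP and 27 in EILP, with folds of 13.8 and 12.1, and no ILCP peak lay within 4780 bp. Over the genome such a loss was rare, as 107 of 8683 EILP regions as strong or stronger (1.23%) had no ILCP peak. Next in strength were the region at 25739476 to 25739753, with 19 and 14 tags, and that at 25974328 to 25974668, with 12 and 14. For the former an ILCP peak lay 173 bp away, and for the latter 4681 bp.

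Regions found in 1 stage were weaker, as they were over the genome. They made up 13.3% of regions for ALP, 6.67% for EILP and 18.7% for ILCP, against 11.3%, 9.65% and 17.2% over the genome. Their median folds were 5.85 in ALP, 5.39 in EILP and 5.5 in ILCP, against 5.08, 5.0 and 5.23 over the genome. For regions of all 3 stages the median was 9.25, against 10.3, with the highest fold of the stages taken for each region. The 10 of ALP had folds from 3.87 to 6.61, led by 26024700 to 26024850, 25953288 to 25953452 and 25804214 to 25804582 with 10, 18 and 11 tags. The 5 of EILP were led by 26098659 to 26098810 with 12 tags and a fold of 8.12, followed by 25936273 to 25936464 with 16 tags and 26041826 to 26041926 with 10. The 14 of ILCP had folds from 3.72 to 6.93, led by 25983763 to 25983890, 25859735 to 25859910 and 26023799 to 26023961 with 15, 11 and 11 tags. Open in ALP and ILCP and closed in EILP were 2 regions (2.67%, 0.734 to 9.21), against 4.09% over the genome. They lay at 25840370 to 25840612 and 25990784 to 25990989, with at most 12 tags.

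Shared regions were then compared in height, scaled per 10M tags. Over the 26 regions open in both ALP and ILCP the median ratio of ILCP to ALP was 0.949, against 1.04 over the genome. A rise of at least 2-fold was seen in 3 (11.5%, 4.00 to 29.0), against 4.22% of shared regions over the genome, which lies inside the interval, and a fall of at least 2-fold in 5 (19.2%, 8.51 to 37.9), against 5.71%, which lies below it. That count of falls was 2 with DHS lists of equal length and 1 with only peaks at or above the median fold of their list. Regions of 1 locus are not independent draws, so the interval of this share is no test against the genome. At the single steps the counts were smaller. From ALP to EILP 0 of 36 rose (4.4% over the genome) and 2 fell (5.56% against 1.94%), and from EILP to ILCP 2 of 32 rose (6.25% against 2.39%) and 2 fell (6.25% against 5.22%). These are folds past a limit in 1 pooled list per stage, with no replicate check. On the scale of fold enrichment no shared region of the window rose or fell 2-fold from ALP to ILCP.

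The 3 regions that rose lay 121 to 174 kb before the start. Between them, the shared regions at 25939633 and 25941236 did not, with ratios of 1.04 (0.504 to 2.14) and 1.24 (0.597 to 2.62). At 25901579 to 25902035 the heights were 17 tags in ALP, 26 in EILP and 42 in ILCP, or 13.7 (7.97 to 21.9), 23.1 (15.1 to 33.9) and 33.1 (23.9 to 44.8) per 10M. ALP and ILCP do not overlap, EILP lies between and overlaps both, and the ratio of ILCP to ALP was 2.42 (1.35 to 4.53). Farther out, at 25924898 to 25925376, the heights were 15, 19 and 40 tags, and the ratio was 2.61 (1.41 to 5.09). The third, at 25954821 to 25955072, went from 11 through 19 to 23 tags, a ratio of 2.05 whose interval, 0.959 to 4.65, includes no change.

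The wider surroundings of the region at 25924898 had the highest ratio of ILCP to ALP in the window. Its 10 kb held 98 tags in ALP, 144 in EILP and 264 in ILCP, or 78.9 (64.1 to 96.2), 128 (108 to 151) and 208 (184 to 235) per 10M, with no overlap between stages. This ratio was 2.64 (2.08 to 3.36), a value reached by 0.0613% of the shared regions of the genome. The ratio was 1.57 (1.21 to 2.02) at 25901579, and 1.5 (1.25 to 1.8) at 25954821, where ALP and EILP were alike at 159 per 10M. From ALP to ILCP, 5 of the 23 regions of the window with a count in both stages were above the 95th percentile of the genome. They were these 3, the promoter and its neighbour at 25777208, which share tags with each other. Another 3 were below the 5th percentile, and 2 of these are the neighbours described next.

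The 5 regions that fell all lay between the promoter and 100 kb before it. The largest fall in tags was in a pair of neighbours. At 25874034 to 25874680 the heights were 42 tags in ALP, 18 in EILP and 20 in ILCP, or 33.8 (24.4 to 45.7), 16.0 (9.49 to 25.3) and 15.8 (9.63 to 24.4) per 10M, and the ALP summit lay apart, at 25874285 against 25874515 and 25874486. At 25875201 to 25875630 they were 39, 25 and 17 tags, a ratio of ILCP to ALP of 0.427 (0.226 to 0.773). ALP stood above ILCP without overlap at the latter, and above both later stages but for the margins of the intervals at the former.

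The 10 kb windows of this pair overlap and share tags. They held 352 tags in ALP for either summit, then 188 and 186 in EILP and 166 and 163 in ILCP. Per 10M tags the summit at 25874285 had 283 (255 to 315) in ALP, 167 (144 to 193) in EILP and 131 (112 to 152) in ILCP. The ratio was 0.590 (0.492 to 0.707) from ALP to EILP and, from EILP to ILCP, 0.782 (0.631 to 0.969). The ratio of ILCP to ALP was 0.462 (0.382 to 0.557), and 0.456% of shared regions of the genome were as low or lower. In ALP this stretch, with 352 tags, exceeded the 10 kb around the Id2 promoter with 269, and in ILCP the order was reversed, with 166 against 478.

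The remaining 3 that fell had at most 17 tags, and the intervals of their ratios of ILCP to ALP include no change. They were at 25828440 to 25828631 with 14, 13 and 7 tags and a ratio of 0.49 (0.167 to 1.3), at 25840370 to 25840612 with 12 in ALP and 6 in ILCP and a ratio of 0.49 (0.151 to 1.41), and at 25850603 to 25850829 with 17, 14 and 8 and a ratio of 0.461 (0.172 to 1.13). Beside the last, the taller DHS at 25849643 to 25849935 had 32, 28 and 26 tags, a ratio of ILCP to ALP of 0.796 (0.455 to 1.38). Taken by distance, the 8 shared regions from the promoter to 100 kb before the start had a median ratio of 0.49, from 0.427 to 1.14, and the 6 of the next 100 kb one of 1.65, from 0.599 to 2.61. On the 3′ side the 3 within 100 kb had a median of 0.918 and the 5 farther out one of 1.01. These blocks were drawn after the values were seen.

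**Figure D4:**
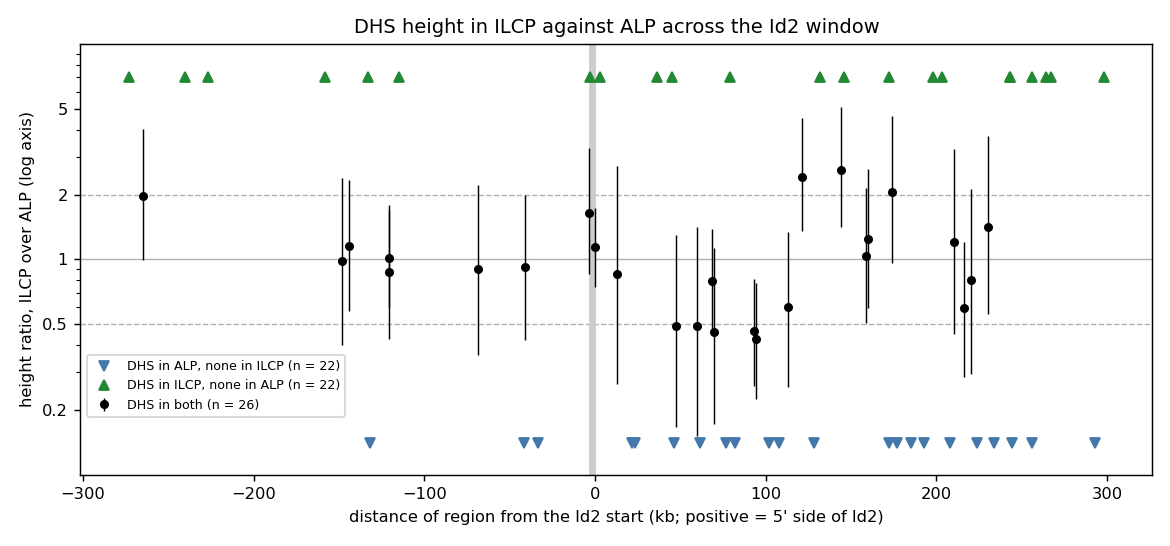
Ratio of summit height in ILCP to that in ALP, on a log axis, for the 26 regions with a DHS in both, with exact 95% intervals, against distance from the Id2 start. Triangles mark the 22 regions found in ALP and not in ILCP and the 22 found in ILCP and not in ALP, and the 5 points at or below 0.5 lie within 100 kb of the start on its 5′ side.

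The DHS under the distal TCF1 peak, 216 kb before the start, was tallest in EILP. Its heights of 23, 30 and 14 tags were 18.5 (11.7 to 27.8), 26.7 (18.0 to 38.1) and 11.0 (6.04 to 18.5) per 10M. These intervals overlap, and the ratio of EILP to ALP, 1.44 (0.81 to 2.6), includes no change. ILCP was 0.413 (0.203 to 0.804) times as high as EILP, and 2.44% of shared regions of the genome were as low. The 10 kb around it held 96.6 (80.1 to 116) tags per 10M in ALP, 130 (110 to 153) in EILP and 117 (98.7 to 137) in ILCP. The ratio of EILP to ALP was 1.34 (1.05 to 1.73), a value reached by 9.97% of shared regions of the genome. That of ILCP to EILP was 0.898, and its interval, 0.71 to 1.14, includes no change. The region at 25939633 to 25939952 had a like order, with 17, 28 and 18 tags. Its intervals overlap too, and its ratio of ILCP to EILP, 0.57 (0.297 to 1.07), includes no change.

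**Figure D5:**
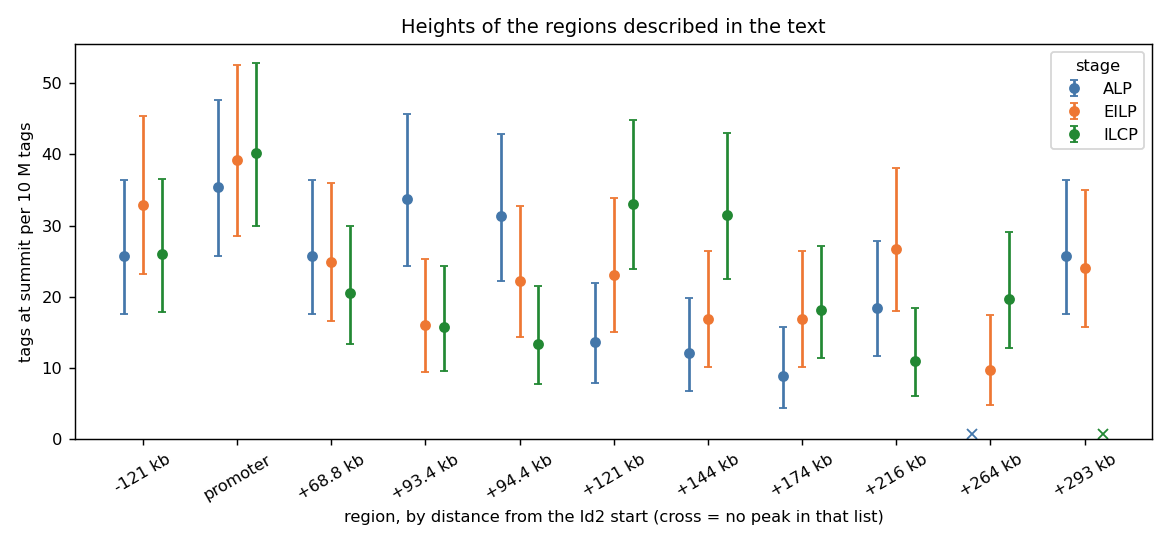
Summit heights per 10M tags, with exact 95% Poisson intervals, of the promoter and 10 other regions named in the text, in order of distance from the Id2 start. Heights run up from ALP to ILCP at 121, 144 and 174 kb and down at 93.4 and 94.4 kb, and a cross marks a stage with no peak.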

How the data were processed

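Peaks were called by the authors on 1 pooled tag file per list, per the file headers, with MACS2 version 2.1.1.20160309 (q cutoff 0.05, 50 bp tags, at most 1 tag per position, 100 bp fragments). DHS lists had no control and a 10 kb background, and TCF1 had pooled IgG tags. The submitters' processing notes name mm9 as build, and the aligner is not given in the sources used here. Deposited values were peak widths, summits, pileup signal (height), fold enrichment ratio and −log10 p and q.

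DHS lists were merged at 1 bp of overlap. Of 2 successive stages, a region with a peak in the later alone was gained and one with a peak in the earlier alone was lost. Heights were scaled to 10000000 tags, and ratios carry exact conditional binomial intervals. Percentiles were taken within 1 list, and as the lists differ in length, those of different lists show no change. Fold enrichments of different stages were set side by side for named regions and used as an alternative to height. Named regions were those within 10 kb of Id2 or with TCF1, the strongest peak of each list and the 3 strongest regions per pattern. Others were chosen after their values were seen, as were the 2-fold limit, the 10 kb counts and their comparisons. Members and lists were chosen with earlier results of these data known. With pooled lists, no test was run. Counting was tested on the EILP list with known changes put in, and the ratio intervals on simulated counts. Python 3.11.15, pandas 2.3.3 and scipy 1.17.1 were used.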

Additional observations from a re-analysis of the deposited data

How the results depend on the processing

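No paired analysis was possible because each list pools its libraries, so no replicate was left out either. Over 105 alternatives, 70 values stayed close to the reported result and 35 moved. With only peaks at or above the median fold of their list, the window held 21 ALP, 25 EILP, 16 ILCP and 2 TCF1 peaks. The gains and losses at EILP were then 7 and 3 and the gains at ILCP 6. Of shared regions, 0 fell from ALP to EILP, 0 rose and 0 fell from EILP to ILCP, and 1 fell from ALP to ILCP. Within 100 kb of Id2 there were 19 ALP, 15 EILP, 16 ILCP and 1 TCF1 peaks, gains and losses of 0 and 4 at EILP and of 6 and 5 at ILCP, and 1 region with TCF1. There, 0 shared regions rose and 1 fell from EILP to ILCP, and 0 rose from ALP to ILCP. A TCF1 peak within 500 bp was found for 5 regions. With DHS lists of equal length, 1 region fell 2-fold from EILP to ILCP and 2 from ALP to ILCP. Chosen after seeing the data, a limit of 1.5-fold gave 6 rises from ALP to EILP, 8 rises and 5 falls from EILP to ILCP and 5 rises from ALP to ILCP. On fold enrichment in place of height, 2-fold changes were 0 falls from ALP to EILP, 1 rise and 1 fall from EILP to ILCP, and 0 rises and 0 falls from ALP to ILCP. The balance of rises and falls turned from 0 and 2 to 6 and 2 from ALP to EILP at 1.5-fold, and from 3 and 5 to 2 and 1 (median fold) or 3 and 2 (equal length) from ALP to ILCP. The cause was not tested. The 10 kb ratio at the promoter, 1.74, was 1.86 less the summit tags and 1.7 over the genome median. Depth limits the TCF1 peaks, as 4 of the 5 rest on 5 tags or fewer.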
